A study of Mus musculus with 29 samples.

Results

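The 10 core genes of the circadian clock, Arntl, Clock, Per1, Per2, Per3, Cry1, Cry2, Nr1d1, Nr1d2 and Dbp, were followed in the 3T3-L1 line, mouse fibroblasts that can be turned into white adipocytes. They were taken by gene symbol and identifier from a count table of 11959 genes, and all 10 were present. In vehicle samples, 6 of them fell and 3 rose between day 0 and day 1 of differentiation, where 54.1% of all genes were differentially expressed, and 7 of the 10 had their lowest mean of any group at day 1. After exposure to the KDM5 inhibitor KDM5-C70 (C70), Arntl and Dbp were higher at day 0, and at day 1 Per3, Nr1d1, Nr1d2 and Dbp were higher while Per2 and Cry1 were lower. At day 2, Per3 and Nr1d1 were lower in C70. The calls of Per3 at day 1 and Nr1d1 at day 2 were lost in 17 and 7 of the 29 fits that left out 1 sample. At day 7, Per3 was higher, a call that did not hold without vehicle replicate 1, where Clock was lower instead, or without C70 replicate 3. The shares of all genes called for C70 were 8.97%, 21.4%, 30.5% and 19.1% at days 0, 1, 2 and 7.

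The clock is a transcriptional feedback loop. CLOCK and ARNTL (also called BMAL1) form a dimer that binds E-box DNA and activates the Per, Cry, Nr1d1, Nr1d2 and Dbp genes. PER and CRY proteins then accumulate and repress that dimer, NR1D1 and NR1D2 (REV-ERBα and REV-ERBβ) repress Arntl through ROR elements, and DBP activates genes that carry D-box DNA. Glucocorticoids such as dexamethasone and agents that raise cAMP are known to induce Per1 and to reset the clocks of cultured fibroblasts, and adipocytes hold a working clock. KDM5 enzymes remove methyl groups from lysine 4 of histone H3, and KDM5A has been described as a partner of the CLOCK and ARNTL dimer.

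Cells were given 10 µM C70 or its solvent DMSO (vehicle) from confluence at day -2 until day 0, and both arms were then differentiated without the inhibitor. Induction at day 0 used a PPARγ agonist, insulin, dexamethasone and isobutylmethylxanthine, which raises cAMP. From day 2 on, the insulin and dexamethasone of this mix stayed in the medium. RNA was sequenced at days 0, 1, 2 and 7, in 3 vehicle and 4 C70 samples at each of days 0, 1 and 2 and in 4 samples of each at day 7, 29 in all. The line was used at passages 6 to 12 and is 1 source of cells, and the labels do not say whether replicates were separate cultures, so P values measure the spread between these samples, which may be technical. Each day was sampled at 1 time, and the clock hour of collection is not given in the sources used here, so that phase, amplitude and mean level of a rhythm cannot be told apart, nor can loss of synchrony between cells. In these bulk samples, fewer cells expressing a gene and less RNA per cell cannot be told apart either.

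Total counts per sample ranged from 16320275 to 24037170. Member counts ranged from 62 to 5311 in a sample, and the coefficient of variation within the 80 member and group combinations had a median of 6.23% and a range of 0.894% to 21.3%. All 10 adipocyte markers and all 10 preadipocyte or fibroblast markers were in the table, together with 1 of 6 macrophage markers (Cd68) and none of 5 endothelial, 5 skeletal muscle and 4 epithelial markers. The summed adipocyte markers rose from 1304 to 1426 CPM (counts scaled to a common library total) in day 0 vehicle samples to 26460 to 30812 CPM in day 7 vehicle samples. The day 7 vehicle replicate 1 had the lowest Clock, Per1, Per2, Per3, Cry2 and Nr1d2 of its group and the highest Dbp, Cry1 and Arntl. Values without this replicate are given where it changed a call in a vehicle or C70 comparison of day 7.

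Promoter sequences were found for 9 of the 10 members in RefSeq, on build GRCm38.p6. Each window ran from 250 bases before to 50 bases after a start site. They were searched on both strands for the E-box CACGTG, the related E′-box CACGTT, the D-box TTATGTAA, the ROR element core TAGGTCA, the cAMP element TGACGTCA and the glucocorticoid receptor hexamer AGAACA. These motifs do not overlap each other in the matches below. The sequences shown are those of members that moved in opposite directions at day 1 and that hold a motif of the loop. They are written 5′ to 3′ on the strand of the gene, with motif matches in capitals. Per1, the gene that rose, carries an E-box 166 bases before 1 of its 2 RefSeq start sites, both of which lie inside the gene as annotated by GENCODE (chr11:69098699-69098948, plus strand), Cry1, which fell, an E-box and an E′-box (chr10:85185055-85185304, minus strand), Nr1d1 an E′-box (chr11:98775378-98775477, minus strand), and Per3 a pair of D-boxes (chr4:151044666-151044915, minus strand). The Arntl stretch (chr7:113207529-113207558, plus strand) lies in its first exon, in the 5′ untranslated part, and holds a ROR element core.
Per1: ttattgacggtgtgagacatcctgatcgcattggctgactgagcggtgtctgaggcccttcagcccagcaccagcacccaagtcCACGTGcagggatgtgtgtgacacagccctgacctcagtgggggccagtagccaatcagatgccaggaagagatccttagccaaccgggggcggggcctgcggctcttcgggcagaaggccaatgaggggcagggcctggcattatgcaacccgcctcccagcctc
Cry1: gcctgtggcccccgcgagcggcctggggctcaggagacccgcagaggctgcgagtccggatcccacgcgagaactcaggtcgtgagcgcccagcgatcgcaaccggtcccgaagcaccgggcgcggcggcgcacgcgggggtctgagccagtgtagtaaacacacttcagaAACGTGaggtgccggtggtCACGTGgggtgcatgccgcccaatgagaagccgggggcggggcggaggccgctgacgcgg
Nr1d1: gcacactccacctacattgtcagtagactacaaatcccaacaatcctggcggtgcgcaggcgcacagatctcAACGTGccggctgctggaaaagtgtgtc
Per3: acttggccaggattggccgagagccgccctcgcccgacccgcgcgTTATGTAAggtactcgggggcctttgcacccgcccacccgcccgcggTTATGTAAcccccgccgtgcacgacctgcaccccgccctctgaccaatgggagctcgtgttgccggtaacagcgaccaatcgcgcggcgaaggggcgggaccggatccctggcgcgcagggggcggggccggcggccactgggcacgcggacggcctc
Arntl: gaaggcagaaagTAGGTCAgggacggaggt
Cry2 also held an E′-box, 166 bases before its start site. No searched motif was found in the windows of Clock, Nr1d2 and Dbp, and no cAMP element or glucocorticoid hexamer in any of the 9. Of all 32851 promoter windows in the table, 7.15% held the E-box, 4.68% the E′-box, 0.938% the D-box, 2.61% the ROR element core, 1.79% the cAMP element and 18.97% the glucocorticoid hexamer. A match is a description of the letters only.

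**Figure D1:**
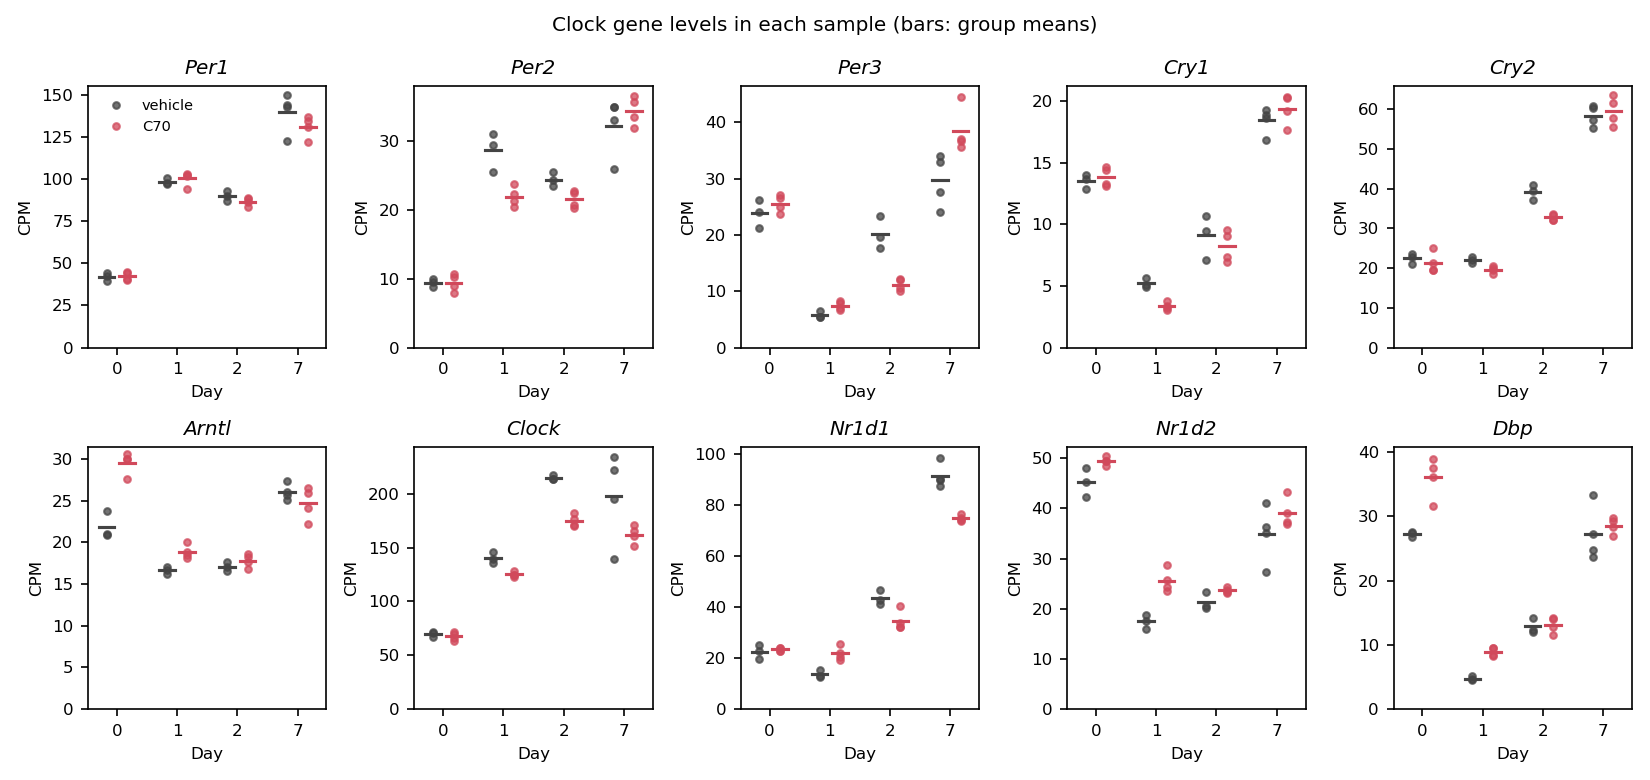
CPM (y axis, linear, from 0) of each clock gene in each of the 29 samples by day (x axis, not to scale), in vehicle (grey) and C70 (red), with bars at the group means. The day 1 samples are the lowest for Dbp, Per3 and Cry1, while Per1, Per2 and Clock stand above their day 0 levels at every later day.

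The first question was how the clock genes behaved when vehicle-treated preadipocytes were induced. From day 0 to day 1, 9 of 10 members were differentially expressed (adjusted P under 0.05 and the higher level more than 25% above the lower, by the quasi-likelihood test of edgeR, written as called from here on), beside 54.1% of all 11959 genes. The split was 3 higher and 6 lower, and the median member had a log2 fold change of -0.56 against 0.0082 for all genes. Dbp, the D-box activator and a direct output of the loop, fell the furthest, from 27.4, 27.5 and 26.8 CPM at day 0 to 4.61, 5.12 and 4.52 CPM at day 1. The groups did not overlap, and Dbp was 5.73-fold lower (log2 fold change -2.52, SE 0.12, adjusted P = 2.59e-18). Per3, the period gene with the least established role in the loop, fell from 21.2, 26.1 and 24.1 CPM to 6.48, 5.40 and 5.51 CPM, a 4.09-fold decrease (log2 fold change -2.03, SE 0.14, adjusted P = 2.3e-14). Cry1, a repressor of the CLOCK and ARNTL dimer, went from 14.02, 12.8 and 13.6 CPM to 4.88, 5.68 and 5.09 CPM (log2 fold change -1.37, SE 0.12, adjusted P = 1.45e-11). The nuclear receptor genes fell with them. Nr1d2 dropped from 45.3, 42.2 and 48.1 CPM to 18.8, 16.01 and 17.6 CPM (log2 fold change -1.37, SE 0.096, adjusted P = 7.88e-14), and Nr1d1 from 25.1, 19.5 and 22.8 CPM to 15.5, 12.8 and 12.4 CPM (log2 fold change -0.73, SE 0.10, adjusted P = 1.75e-07). Arntl, the activator subunit, fell least of the 6, from 20.9, 23.8 and 20.8 CPM to 16.7, 16.2 and 17.1 CPM (log2 fold change -0.39, SE 0.068, adjusted P = 8.7e-06). For each of these 6 genes, every day 1 vehicle sample was below every day 0 vehicle sample. The share of all genes whose groups separate in this way is not given, here or in the comparisons below. Separation is therefore a description of each gene and not a trait of the clock genes.

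The period genes Per1 and Per2 and the activator Clock went the other way. Per1, the period gene known as an immediate responder to glucocorticoids and cAMP, rose from 39.5, 42.7 and 44.4 CPM at day 0 to 97.8, 100.4 and 97.2 CPM at day 1, 2.34-fold higher (log2 fold change 1.22, SE 0.063, adjusted P = 3.36e-17). Per2, its close relative in the repressor complex, rose 3.06-fold from 8.74, 9.98 and 9.47 CPM to 25.5, 30.99 and 29.5 CPM (log2 fold change 1.61, SE 0.11, adjusted P = 1.68e-14). Clock, the partner of ARNTL and a histone acetyltransferase, rose from 71.1, 66.8 and 72.05 CPM to 146, 139 and 135 CPM (log2 fold change 1.00, SE 0.10, adjusted P = 2.83e-10). All day 1 vehicle samples were above all day 0 vehicle samples for these 3 genes. Cry2, the second cryptochrome, had 22.9, 23.6 and 20.9 CPM at day 0 and 21.4, 22.8 and 22 CPM at day 1, and the groups overlapped (log2 fold change -0.027, SE 0.075, adjusted P = 0.761).

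From day 1 to day 2, 6 members rose in vehicle samples, while 44.3% of all genes were differentially expressed. Nr1d1 rose to 41.2, 46.6 and 42.9 CPM (log2 fold change 1.68, SE 0.096, adjusted P = 1.35e-15), Per3 to 17.8, 23.4 and 19.6 CPM (log2 fold change 1.81, SE 0.14, adjusted P = 9.77e-13) and Dbp to 12.3, 14.2 and 12.02 CPM (log2 fold change 1.44, SE 0.13, adjusted P = 2.33e-11). Cry2 rose to 39.5, 41.1 and 37.2 CPM (log2 fold change 0.83, SE 0.072, adjusted P = 1.87e-11), Cry1 to 10.7, 7.12 and 9.46 CPM (log2 fold change 0.80, SE 0.13, adjusted P = 2.53e-06) and Clock to 214, 217 and 214 CPM (log2 fold change 0.62, SE 0.097, adjusted P = 2.27e-06). The day 1 and day 2 samples did not overlap for any of these 6 genes. Nr1d2, the paralog of Nr1d1, reached 20.2, 23.4 and 20.6 CPM, which passed the P threshold but not the fold threshold (log2 fold change 0.29, SE 0.10, adjusted P = 0.0139). Per1, Per2 and Arntl were also not called, with log2 fold changes of -0.13, -0.23 and 0.033.

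From day 2 to day 7, 9 members rose in vehicle samples, with 53.3% of all genes differentially expressed, and Clock was the member not called (log2 fold change -0.12, SE 0.090, adjusted P = 0.231; log2 fold change 0.033, SE 0.051, adjusted P = 0.571 without day 7 vehicle replicate 1). Nr1d1 reached 90.4, 87.6, 89.9 and 98.3 CPM, its highest level of any group (log2 fold change 1.07, SE 0.079, adjusted P = 3.55e-13). Dbp reached 33.3, 23.7, 24.7 and 27.3 CPM (log2 fold change 1.08, SE 0.096, adjusted P = 2.09e-11) and Cry1 19.3, 18.7, 16.9 and 18.9 CPM (log2 fold change 1.02, SE 0.10, adjusted P = 3.34e-10). The remaining 6, Nr1d2, Per1, Arntl, Cry2, Per3 and Per2, had log2 fold changes from 0.40 to 0.71, and their day 7 samples lay above all their day 2 samples.

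Across the whole course, from day 0 to day 7 in vehicle samples, 7 members were higher and 1 was lower, beside 73.5% of all genes, and the median member had a log2 fold change of 0.91 against 0.0083 for all genes. Nr1d1 was 4.05-fold higher (log2 fold change 2.02, SE 0.085, adjusted P = 7.13e-20), Per2 3.45-fold (log2 fold change 1.79, SE 0.10, adjusted P = 1.46e-16), Per1 3.32-fold (log2 fold change 1.73, SE 0.060, adjusted P = 4.03e-22), Clock 2.83-fold (SE of the log2 fold change 0.096) and Cry2 2.60-fold (log2 fold change 1.38, SE 0.068, adjusted P = 3.56e-18). Cry1 and Per3 were 1.36-fold and 1.251-fold higher, the latter with overlapping groups and at the edge of the fold threshold. The Per3 call was not made by DESeq2 or limma, nor without day 0 vehicle replicate 1 or day 7 vehicle replicate 2 or 3, with log2 fold changes of 0.24 to 0.41 over the 29 fits that left out 1 sample. Nr1d2 was lower, at 27.4, 41.1, 36.4 and 35.03 CPM (log2 fold change -0.37, SE 0.084, adjusted P = 0.000196). Without day 7 vehicle replicate 1, which had the lowest of these values, it was not called (log2 fold change -0.27, SE 0.069, adjusted P = 0.000592). Dbp at day 7 overlapped its day 0 samples (log2 fold change 0.00031, SE 0.088, adjusted P = 0.997, and log2 fold change -0.11, SE 0.076, adjusted P = 0.19 without that replicate), and Arntl passed the P threshold only (log2 fold change 0.26, SE 0.062, adjusted P = 0.00038).

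**Figure D2:**
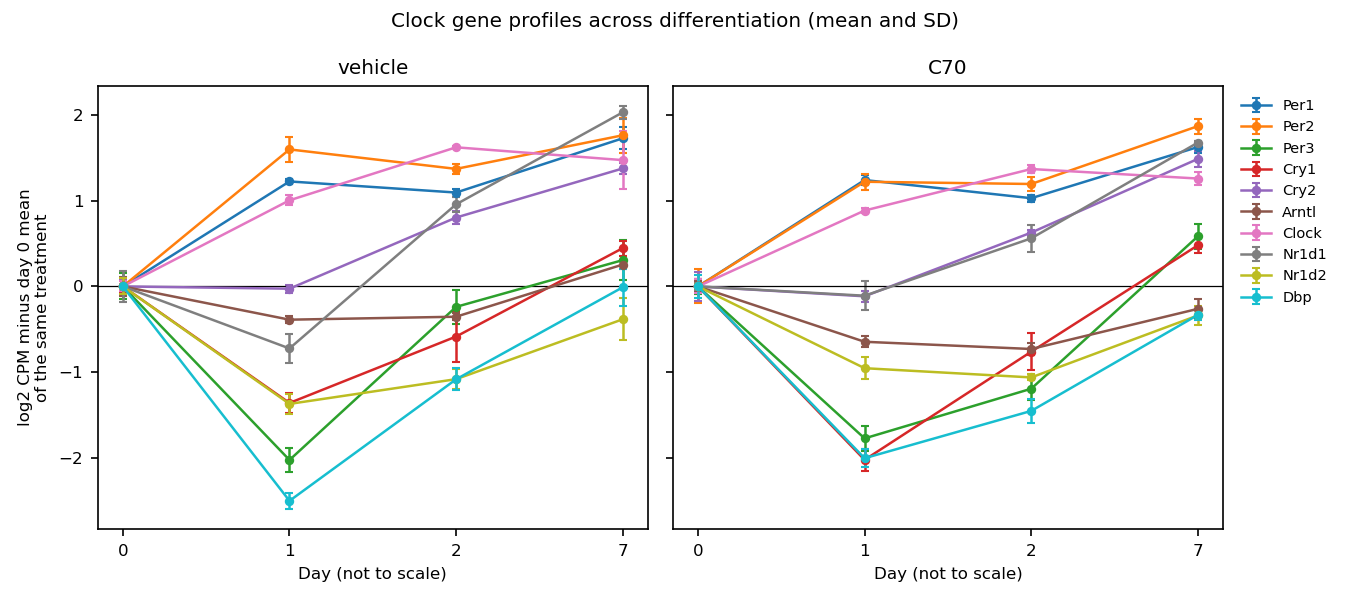
Mean log2 CPM of each clock gene minus the day 0 mean of the same treatment (y axis) by day (x axis, not to scale), in vehicle (left) and C70 (right), with SD over 3 or 4 samples. Per1, Per2 and Clock go up at day 1 while Dbp, Per3, Cry1 and Nr1d2 go down in both arms, and Nr1d1 is at -0.72 in vehicle and -0.11 in C70. The day 0 levels of Arntl and Dbp themselves differ between arms.

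The second question was what the inhibitor did to these genes. At day 0, after 2 days of C70 and before induction, 2 of 10 members were higher, beside 8.97% of all genes differentially expressed. The members' median log2 fold change was 0.045, and that of all genes -0.00043. Arntl had 20.9, 23.8 and 20.8 CPM in vehicle and 30.04, 27.6, 29.98 and 30.7 CPM in C70, and every C70 sample was above every vehicle sample (log2 fold change 0.44, SE 0.061, adjusted P = 3.01e-06). This was a 1.36-fold difference, and the C70 group at day 0 had the highest Arntl of all 8 groups. Dbp had 27.4, 27.5 and 26.8 CPM in vehicle and 36.05, 37.6, 38.97 and 31.6 CPM in C70, again without overlap (log2 fold change 0.40, SE 0.085, adjusted P = 0.000897). The other 8 members had log2 fold changes between -0.079 and 0.13. Among them were Per1 (log2 fold change 0.013, SE 0.061, adjusted P = 0.923), Per2 (log2 fold change 0.0064, SE 0.11, adjusted P = 0.98) and Clock, the partner of Arntl (log2 fold change -0.045, SE 0.096, adjusted P = 0.811).

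At day 1, a day after C70 was removed and induction began, 6 of 10 members were differentially expressed, 4 higher and 2 lower, beside 21.4% of all genes. The median was 0.10 for members and -0.0060 for all genes. Dbp showed the largest difference, with 4.61, 5.12 and 4.52 CPM in vehicle and 9.45, 9.55, 8.38 and 8.32 CPM in C70, 1.88-fold higher (log2 fold change 0.91, SE 0.13, adjusted P = 8.86e-07). Nr1d1 had 15.5, 12.8 and 12.4 CPM in vehicle and 20.5, 25.4, 19.3 and 22.1 CPM in C70, 1.61-fold higher (log2 fold change 0.69, SE 0.097, adjusted P = 1.12e-06). Nr1d2 had 18.8, 16.01 and 17.6 CPM and 24.4, 28.8, 23.5 and 25.7 CPM, 1.47-fold higher (log2 fold change 0.55, SE 0.095, adjusted P = 2.32e-05). All 3 genes were at their lowest in the vehicle samples of this day, and no C70 sample was as low as any of those. Per3 had 6.48, 5.40 and 5.51 CPM in vehicle and 6.99, 8.27, 6.62 and 7.93 CPM in C70 (log2 fold change 0.37, SE 0.15, adjusted P = 0.0496). That call sits at the threshold and was lost in 17 of the 29 fits that left out 1 sample, with log2 fold changes from 0.31 to 0.45, and with DESeq2 size factors, library totals alone and quantile normalization.

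The 2 members that C70 lowered at day 1, Cry1 and Per2, code for repressors, as do Nr1d1 and Nr1d2 among the members it raised. Cry1 had 4.88, 5.68 and 5.09 CPM in vehicle and 3.24, 3.40, 3.75 and 3.02 CPM in C70, 1.56-fold lower (log2 fold change -0.64, SE 0.14, adjusted P = 0.000483), the lowest Cry1 of any group. Per2 had 25.5, 30.99 and 29.5 CPM in vehicle and 22.3, 20.4, 23.7 and 21.3 CPM in C70, 1.31-fold lower (log2 fold change -0.39, SE 0.090, adjusted P = 0.00092). In both cases the groups did not overlap. Of their paralogs, Per3 was higher, as given above, and Per1 and Cry2 were not called. Per1 had 97.8, 100.4 and 97.2 CPM in vehicle and 94.4, 103, 102 and 102 CPM in C70 (log2 fold change 0.028, SE 0.056, adjusted P = 0.728), and Cry2 had 21.4, 22.8 and 22 CPM and 19.4, 20.5, 18.4 and 20.1 CPM (log2 fold change -0.17, SE 0.072, adjusted P = 0.0619). Arntl still separated the arms, at 16.7, 16.2 and 17.1 CPM and 18.5, 18.1, 20.1 and 18.8 CPM, but the difference was under the fold threshold (log2 fold change 0.18, SE 0.066, adjusted P = 0.0295), and Clock was not called (log2 fold change -0.17, SE 0.092, adjusted P = 0.154).

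At day 2, 2 of 10 members were lower in C70, with 30.5% of all genes differentially expressed, and the median was -0.16 for members and -0.0036 for all genes. Per3 had 17.8, 23.4 and 19.6 CPM in vehicle and 9.98, 12.1, 10.7 and 11.9 CPM in C70, 1.82-fold lower and without overlap (log2 fold change -0.86, SE 0.12, adjusted P = 3.17e-07). Nr1d1 had 41.2, 46.6 and 42.9 CPM in vehicle and 32.2, 40.6, 32.3 and 33.7 CPM in C70 (log2 fold change -0.33, SE 0.082, adjusted P = 0.00127), just past the fold threshold, and this call was lost in 7 of 29 fits that left out 1 sample, with log2 fold changes from -0.41 to -0.28. Cry2 and Clock passed the P threshold only. Cry2 had 39.5, 41.1 and 37.2 CPM in vehicle and 32.02, 32.2, 33.6 and 33.5 CPM in C70 (log2 fold change -0.26, SE 0.065, adjusted P = 0.00134), and Clock 214, 217 and 214 CPM and 182, 177, 171 and 169.8 CPM (log2 fold change -0.30, SE 0.090, adjusted P = 0.00657). The arms did not overlap for either. Dbp, which had differed most a day earlier, had 12.3, 14.2 and 12.02 CPM and 13.98, 14.2, 12.8 and 11.5 CPM with overlapping groups (log2 fold change 0.026, SE 0.10, adjusted P = 0.854).

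At day 7, 1 of 10 members was called, beside 19.1% of all genes, and the median was 0.049 for members and 0.0038 for all genes. Per3 had 24.03, 34.1, 33.02 and 27.6 CPM in vehicle and 36.7, 37.03, 44.5 and 35.6 CPM in C70 (log2 fold change 0.37, SE 0.095, adjusted P = 0.00226). Without day 7 vehicle replicate 1 its fold change was under the threshold (log2 fold change 0.29, SE 0.087, adjusted P = 0.00756), and without C70 replicate 3, the highest sample, it was not called either (log2 fold change 0.29). Nr1d1 had 90.4, 87.6, 89.9 and 98.3 CPM in vehicle and 74.1, 76.6, 73.9 and 75.1 CPM in C70, with no overlap but under the fold threshold (log2 fold change -0.29, SE 0.071, adjusted P = 0.00151). Clock had 139, 235, 222 and 195 CPM in vehicle and 165, 152, 171 and 161 CPM in C70 (log2 fold change -0.29, SE 0.084, adjusted P = 0.00699). The vehicle values were split by replicate 1, at 139 CPM, and without it Clock was differentially expressed (log2 fold change -0.42, SE 0.048, adjusted P = 8.87e-09). The remaining 7 members had log2 fold changes from -0.094 to 0.16 and none was called with or without that replicate. Without it, Dbp moved from 0.068 to 0.18 (adjusted P = 0.0426 by edgeR) and Per1 from -0.094 to -0.15 (adjusted P = 0.00649), both now past the P threshold only. Nr1d2 moved from 0.16 to 0.071, Per2 from 0.092 to 0.0079, Cry2 from 0.03 to 0.011 and Arntl from -0.078 to -0.048, while Cry1 was at 0.10 without it.

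**Figure D3:**
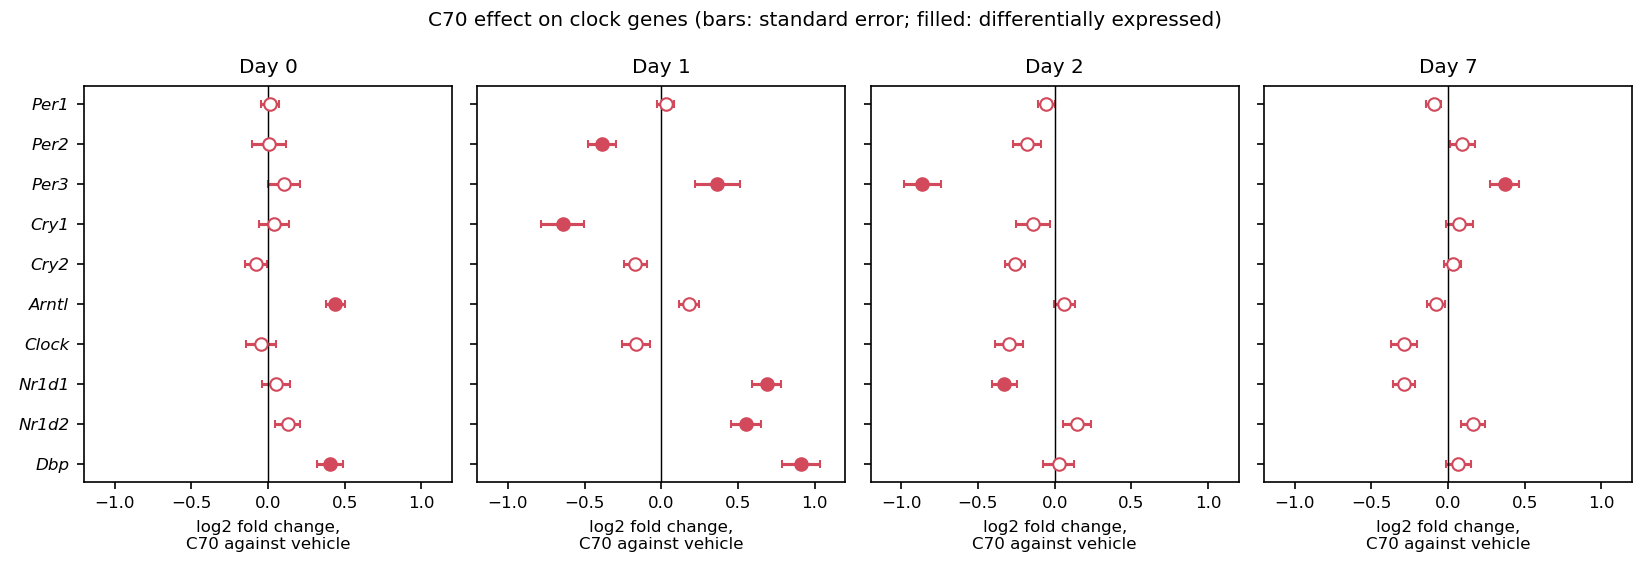
Log2 fold change of C70 against vehicle (x axis) for each clock gene (y axis) at days 0, 1, 2 and 7, with standard errors. Filled points were called, which gives 2, 6, 2 and 1 filled points from the left panel to the right one.

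Adipocyte and preadipocyte markers were compared between the arms on the same days. The shares of all genes called for C70 were 8.97%, 21.4%, 30.5% and 19.1% at days 0, 1, 2 and 7. At day 0, 1 adipocyte marker was higher in C70 and 2 were lower, and 2 preadipocyte or fibroblast markers were higher and 1 was lower. At day 1, 8 of 10 adipocyte markers were lower in C70, with summed levels of 5578 to 5902 CPM in vehicle and 3516 to 3645 CPM in C70, while at day 0 these sums were 1304 to 1426 CPM and 1487 to 1540 CPM. At day 2, 8 of 10 were lower, with 25290 to 26172 CPM and 14807 to 16431 CPM. At day 7, 2 were higher, with 26460 to 30812 CPM and 28979 to 31769 CPM. The preadipocyte or fibroblast markers were higher in C70 for 5 of 10 and lower for 1 at day 1, and higher for 9 of 10 at day 2 and 10 of 10 at day 7, where their sums were 4006 to 5321 CPM in vehicle and 8258 to 9708 CPM in C70. The macrophage marker Cd68 had 1.13 to 1.67 CPM in vehicle and 18.7 to 19.8 CPM in C70 at day 0. It was also higher at day 1, with 1.74 to 2.01 CPM and 13.6 to 15.1 CPM, and at day 2, with 1.33 to 1.75 CPM and 6.35 to 6.94 CPM, and was not called at day 7, with 1.92 to 2.69 CPM and 1.06 to 2.79 CPM. No marker listed in the table was at 0 in a whole group. The part of these markers in the clock gene differences was not tested.

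Whether the C70 effect itself changed between days was tested by interaction contrasts, which share samples with the comparisons above. Between day 0 and day 1, 4 of 10 members changed in their response, beside 13.9% of all genes. The response became more positive for Nr1d1 (log2 fold change 0.63, SE 0.13, adjusted P = 0.000742), Dbp (log2 fold change 0.51, SE 0.15, adjusted P = 0.0177) and Nr1d2 (log2 fold change 0.42, SE 0.13, adjusted P = 0.0158) and more negative for Cry1 (log2 fold change -0.68, SE 0.17, adjusted P = 0.00479). Per2 missed the threshold with edgeR (log2 fold change -0.39, SE 0.14, adjusted P = 0.0535). It was called, with log2 values from -0.47 to -0.38, by DESeq2, limma, the replicate block, library totals alone, the fit of only the groups compared and 4 of the 29 fits that left out 1 sample. With limma, Dbp was not called (log2 value 0.35). Between day 1 and day 2, 5 members changed, beside 13.8% of all genes. The response turned downwards for Per3 (log2 fold change -1.23, SE 0.19, adjusted P = 1.82e-05), Nr1d1 (log2 fold change -1.01, SE 0.13, adjusted P = 9.01e-07), Dbp (log2 fold change -0.88, SE 0.16, adjusted P = 0.000187) and Nr1d2 (log2 fold change -0.41, SE 0.13, adjusted P = 0.0293). It turned upwards for Cry1 (log2 fold change 0.50, SE 0.18, adjusted P = 0.0477), a call lost in 20 of 29 fits that left out 1 sample, with log2 values from 0.34 to 0.64. Between day 2 and day 7, where 20.9% of all genes changed, Per3 was the 1 member called (log2 fold change 1.23, SE 0.15, adjusted P = 1.99e-07; log2 fold change 1.14, SE 0.14, adjusted P = 2.99e-08 without day 7 vehicle replicate 1). Per3 and Nr1d1 thus had C70 responses of opposite sign at days 1 and 2, and Per3 again at days 2 and 7.

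The course within the C70 arm shares its samples with the comparisons above. From day 0 to day 1, 8 members were differentially expressed, 3 higher and 5 lower, beside 52.6% of all genes. Nr1d1, which had fallen in vehicle, had 22.9, 24.04, 22.7 and 24.1 CPM at day 0 and 20.5, 25.4, 19.3 and 22.1 CPM at day 1 in C70, with overlapping groups (log2 fold change -0.10, SE 0.084, adjusted P = 0.299). Cry1 fell 4.15-fold to its minimum (log2 fold change -2.05, SE 0.12, adjusted P = 2.89e-16) and Dbp 4.02-fold (log2 fold change -2.01, SE 0.091, adjusted P = 1.4e-18). From day 1 to day 2, 6 members rose, beside 36.9% of all genes. Per3 rose by 0.58 on the log2 scale in C70 and by 1.81 in vehicle, and Nr1d1 by 0.67 and 1.68. From day 2 to day 7, 9 members rose, beside 54.8% of all genes, and Clock was again not called (log2 fold change -0.11, SE 0.085, adjusted P = 0.243). Here Per3 rose 3.44-fold in C70 (log2 fold change 1.78, SE 0.11, adjusted P = 1.52e-15), against 1.46-fold in vehicle.

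Ordered by the range of their group means, Dbp varied most, with a highest mean 7.59-fold above its lowest, followed by Nr1d1 at 6.74-fold, Per3 at 6.63-fold and Cry1 at 5.78-fold. Per2 at 3.66-fold, Per1 at 3.32-fold, Clock at 3.17-fold, Cry2 at 3.04-fold and Nr1d2 at 2.83-fold varied less, and Arntl least, at 1.77-fold. The highest group was at day 7 for 6 members, at day 0 for Arntl, Nr1d2 and Dbp, and at day 2 for Clock. Nr1d1 gave the clearest order, since only 2 of its 7 neighbouring pairs of groups overlapped: day 1 vehicle, at 13.6 ± 1.68 (SD, n = 3) CPM, was lowest, day 1 C70, day 0 vehicle and day 0 C70 overlapped in sequence, and day 2 C70, day 2 vehicle, day 7 C70 and day 7 vehicle, at 91.5 ± 4.69 (SD, n = 4) CPM, followed without overlap. Dbp ran from day 1 vehicle, at 4.75 ± 0.322 (SD, n = 3) CPM, through day 1 C70, at 8.93 ± 0.665 (SD, n = 4) CPM, and the overlapping day 2 groups to day 0 vehicle and both day 7 groups, which overlapped in sequence, and to day 0 C70, at 36.03 ± 3.21 (SD, n = 4) CPM, which had the highest mean but overlapped day 7 vehicle through replicate 1 of the latter. For Per3, day 1 vehicle, day 1 C70 and day 2 C70 stood apart in that order at the low end, and day 7 C70, at 38.5 ± 4.07 (SD, n = 4) CPM, stood alone at the top.

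Levels can be compared between genes only per length. Scaled to CPM per kb of exon, the day 0 vehicle samples had Dbp highest at 9.10, then Nr1d2 at 8.36, Per1 at 7.49, Nr1d1 at 7.31, Clock at 5.10, Cry1 at 4.04, Cry2 at 3.56, Arntl at 2.91, Per3 at 2.48 and Per2 at 1.60. At day 1 the leading places in vehicle went to Per1, at 17.5 CPM per kb, and Clock, at 10.2 CPM per kb, and Per3 was last at 0.603 CPM per kb. At day 7 Nr1d1 led with 29.8 CPM per kb, ahead of Per1 at 24.8 CPM per kb, and Per3 and Arntl were lowest at 3.09 and 3.47 CPM per kb. Clock was above its dimer partner Arntl per length at every day in vehicle samples.

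**Figure D4:**
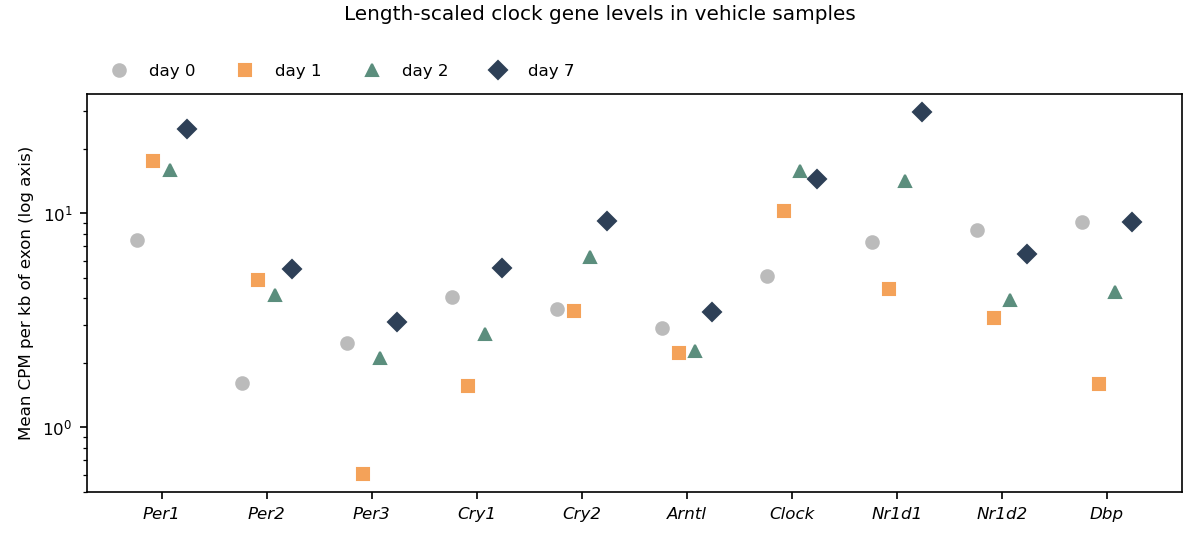
Mean CPM per kb of exon (y axis, log scale) of each clock gene in vehicle samples at days 0, 1, 2 and 7 (markers, 3 or 4 samples each). Day 1 is the lowest point for Per3, Cry1, Nr1d1, Nr1d2 and Dbp, while Per1, Per2 and Clock are lowest at day 0.

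The members fell into patterns across the 8 group means of log2 CPM, which share their libraries and are given as a description. Per1 and Per2 ran together (Pearson's r = 0.98), and Clock with both (r = 0.87 and 0.89). Dbp ran with Nr1d2 (r = 0.93), Per3 (r = 0.92), Cry1 (r = 0.87) and Arntl (r = 0.87), and Per3 with Cry1 (r = 0.94). Nr1d1 was closest to Cry2 (r = 0.95) and far from its paralog Nr1d2 (r = 0.27). Arntl and Clock, whose proteins form 1 dimer, had r = -0.44. Each pattern was compared with those of 4297 other genes. Their group means spanned at least 1 log2 unit, and their mean log2 CPM was not in the lowest 25% of the table. The pattern most like that of Dbp was Zbtb46 (r = 0.985), and that of Nr1d1 was Acacb (r = 0.996) followed by Rora (r = 0.987). That of Nr1d2 was Jup (r = 0.996), and that of Per3 was Mid1ip1 (r = 0.981). Tcim was the most like both Per1 (r = 0.993) and Per2 (r = 0.990). For Cry1 it was Vegfb (r = 0.974), for Cry2 Rnf11 (r = 0.998), for Clock Ndufc2 (r = 0.998) and for Arntl, among 4298 genes, Agap1 (r = 0.959).

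Further transcription factors of the clock described here were Arntl2, Bhlhe40, Bhlhe41, Ciart, Nfil3, Rora and Tef. Of these 7, edgeR's quasi-likelihood test called 0 at day 0, where 2 were higher and 1 lower at an unadjusted P under 0.05, DESeq2 called 0 and limma 1. By edgeR, 3687 of all 11959 genes passed that unadjusted P at day 0. C70 raised 3 at day 1 and lowered 1 at day 2, and at day 7 it raised 1 and lowered 1, beside 21.4%, 30.5% and 19.1% of all genes called on those days. Over all 8 genes of this list in the table, including 1 not reported here, 1 was called higher at day 0. At day 2, 2 of the 8 were called lower. All genes were called at 8.97% and 30.5% on these 2 days. Rora codes for an activator that competes with NR1D1 and NR1D2 for ROR elements. Rora was higher in C70 at day 1 (log2 fold change 0.51, SE 0.12, adjusted P = 0.00077) and lower at day 2 (log2 fold change -0.67, SE 0.097, adjusted P = 9.96e-07), and the change in its response between those days passed the test (log2 fold change -1.18, SE 0.15, adjusted P = 1.47e-06). At day 1, Bhlhe41, a repressor of E-box genes (log2 fold change 0.62, SE 0.10, adjusted P = 1.17e-05), and Nfil3, a repressor at D-boxes (log2 fold change 0.43, SE 0.068, adjusted P = 6.81e-06), were also higher. At day 7, Bhlhe40 was lower (log2 fold change -0.40, SE 0.057, adjusted P = 1.22e-06) and Bhlhe41 higher (log2 fold change 0.36, SE 0.089, adjusted P = 0.0017).

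Of 14 kinases, ubiquitin ligases and partners of the clock proteins, 13 were in the table and C70 raised 1 at day 0, raised 1 and lowered 1 at day 1 and lowered 2 at day 2. These are 7.69%, 15.4% and 15.4% of the list, beside the 8.97%, 21.4% and 30.5% of all genes called on those days. At day 7, edgeR and DESeq2 called 0 of 13, with 3 higher and 3 lower at an unadjusted P under 0.05 by both, and limma called 1 lower. By edgeR, 19.1% of all genes were called at day 7, and 5765 of all 11959 genes passed that unadjusted P. Usp2, a deubiquitinase that acts on clock proteins, had 4.35 ± 0.12 CPM (SD, n = 3) in vehicle and 9.32 ± 0.44 CPM (SD, n = 4) in C70 at day 0 (log2 fold change 1.10, SE 0.096, adjusted P = 4.42e-10) and was higher at day 1 too (log2 fold change 0.39, SE 0.073, adjusted P = 6.9e-05). Timeless, which also serves in DNA replication, was lower at days 1 and 2 (log2 fold change -0.40, SE 0.099, adjusted P = 0.0019 and log2 fold change -0.48, SE 0.094, adjusted P = 8.35e-05), and its partner Tipin was lower at day 2 (log2 fold change -0.39, SE 0.078, adjusted P = 0.000115). The 3 KDM5 genes in the table, Kdm5a, Kdm5b and Kdm5c, gave 0 calls for C70 at each of the 4 days by edgeR, DESeq2 and limma, with median log2 fold changes from -0.0029 to 0.14. At an unadjusted P under 0.05, 1 of them was higher at day 1 and 1 at day 7 by all 3 tools. By edgeR, 5759 and 5765 of all 11959 genes passed that unadjusted P on these days.

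Since induction brings dexamethasone and an agent that raises cAMP, responsive genes of both were taken as lists. In vehicle samples from day 0 to day 1, 7 of 9 glucocorticoid-responsive genes rose and 1, Sgk1, fell, among them Fkbp5, a chaperone partner of the glucocorticoid receptor (log2 fold change 3.22, SE 0.041, adjusted P = 8.64e-32), and Tsc22d3, a mediator of its anti-inflammatory action (log2 fold change 3.197, SE 0.056, adjusted P = 1.26e-28). Of 8 cAMP-responsive genes, 5 rose and 1 fell. In this comparison 54.1% of all genes were differentially expressed. C70 raised 2 of the 9 glucocorticoid-responsive genes at day 0, raised 1 and lowered 1 at day 1, raised 4 and lowered 1 at day 2 and raised 3 and lowered 1 at day 7. These are 22.2%, 22.2%, 55.6% and 44.4% of the list, beside 8.97%, 21.4%, 30.5% and 19.1% of all genes. At day 1, 8 of the 9 had log2 fold changes above 0, with a median of 0.22, and 6 of the 9 passed the P threshold alone. Of all 11959 genes, 5835 lay above 0, with a median of -0.0060, and 4865 passed the P threshold alone. Lcn2, which codes for a secreted lipocalin, was the gene raised at day 1 (log2 fold change 1.54, SE 0.084, adjusted P = 3.29e-15) and Sgk1, a kinase gene, the gene lowered (log2 fold change -0.37, SE 0.040, adjusted P = 7.12e-09). The summed level of the list at day 1 was 2653 to 2742 CPM in vehicle and 3082 to 3113 CPM in C70, without overlap. Of the 8 cAMP-responsive genes, C70 raised 3 at day 0, 3 at day 1 and 4 at day 2, and raised 1 and lowered 1 at day 7. Those raised at day 1 were Fos (log2 fold change 0.67, SE 0.13, adjusted P = 0.000109), Fosl2 (log2 fold change 0.81, SE 0.069, adjusted P = 7.24e-11) and Nr4a1 (log2 fold change 0.44, SE 0.065, adjusted P = 2.51e-06), which code for transcription factors. At days 0, 1 and 2 these are 37.5%, 37.5% and 50.0% of the list, and the summed level at day 1 was 515 to 545 CPM in vehicle and 680 to 709 CPM in C70. Whether these lists bear on the clock genes was not tested.

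On build GRCm38, Arntl lies at chr7:113207465-113314126 on the plus strand, Clock at chr5:76209868-76304792 on the minus strand, Per1 at chr11:69095217-69109960 on the plus strand, Per2 at chr1:91415982-91459324, Per3 at chr4:151003652-151044665, Cry1 at chr10:85131700-85185064, Cry2 at chr2:92403646-92434043, Nr1d1 at chr11:98767932-98775333 and Nr1d2 at chr14:18204054-18239127 on the minus strand, and Dbp at chr7:45705088-45710203 on the plus strand. Counts were taken here to cover the exons of each gene, which was not checked. Exons of Nr1d1 overlap those of Thra and exons of Dbp those of Sphk2 on the other strand, and the sources used here do not say whether counting used strand, so reads of these pairs may be shared. At days 0, 1, 2 and 7, the log2 fold changes of C70 against vehicle were -0.31, -0.21, -0.27 and 0.27 for Thra, beside 0.053, 0.69, -0.33 and -0.29 for Nr1d1, so that the pair had the same sign at day 2 only. They were -0.39, -0.39, -0.43 and -0.088 for Sphk2, beside 0.40, 0.91, 0.026 and 0.068 for Dbp, of opposite sign on each day, although Nr1d1 at day 0 and Dbp at day 2 lay near 0 and changed sign in some fits that left out 1 sample. In the vehicle steps from day 0 to 1, 1 to 2 and 2 to 7, the log2 fold changes were -0.16, 0.64 and -0.11 for Thra, with the sign of Nr1d1 in the steps to days 1 and 2. They were 0.21, 0.54 and 0.45 for Sphk2, with the sign of Dbp in the steps to days 2 and 7. Exons of Cry2 and Arntl overlap those of D930015M05Rik and Gm45355 in the same way.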

How the data were processed

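RNA-seq of 3T3-L1 cells gave a table of whole-number counts for 11959 genes in 29 samples. Per the labels, strand-specific libraries were made with an mRNA-seq kit, while the study's text speaks of total RNA-sequencing. The authors mapped the reads to the GRCm38 genome (Ensembl 97) by STAR 2.7.2a. The deposited counts are named normalized but are unscaled, and they hold only genes with some expression. The counting program and its use of strand are not given in the sources used here. Total counts were 16320275 to 24037170 per sample.

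From the counts, CPM scaled by trimmed mean of M values (TMM) factors and log2 CPM with a prior count of 2 were computed. All 29 samples were fitted together with edgeR 4.0.16 in R 4.3.3, using its quasi-likelihood F test on a design of 8 groups without covariates. P values were two-sided and adjusted by the Benjamini-Hochberg method over the 11959 genes in each of 14 comparisons. Genes with an adjusted P under 0.05 and a fold change over 1.25 were called. The test was checked on simulated counts. Coordinates came from GENCODE M21 and promoters from RefSeq (GRCm38.p6). CPM per kb used exon lengths from GENCODE.

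Samples were grouped by day and treatment from the labels. The members, lists and tests were chosen with earlier results of these data known. Every member is named. The other lists are given as counts, with the test values of a gene only where it was called in a comparison described. Of the list of further clock transcription factors, 1 gene is not reported here. The genes most like a member were the 3 of highest Pearson's r, of which the first is given for each (Rora, the second for Nr1d1, was added after its values were seen). The alternatives were DESeq2 1.42.0, its size factors in edgeR, library totals alone, limma 3.58.1 on quantile-normalized values, a replicate block, only the groups compared, removal of the 25% of genes of lowest mean level, adjusted P alone, a fold change over 1.5, and leaving out each sample in turn.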

Additional observations from a re-analysis of the deposited data

Results flagged for a closer look

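Of the 50 combinations of a member and a group of 4 samples, 2 held a sample far from its others, where chance gives about 1 in 20, or 2.5. Per1 in day 1 C70 replicate 1 was at 94.4 CPM, below the other 3 of its group, and Per3 in day 7 C70 replicate 3 was at 44.5 CPM, above the other 3.

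The C70 effect differed between days by the interaction test of edgeR in 10 cases. Of all genes, 13.9%, 13.8% and 20.9% were called for day 1 minus day 0, day 2 minus day 1 and day 7 minus day 2. From day 0 to day 1 the log2 effect moved by -0.68 for Cry1, 0.63 for Nr1d1, 0.51 for Dbp and 0.42 for Nr1d2. From day 1 to day 2 it moved by -1.23 for Per3, -1.01 for Nr1d1, -0.88 for Dbp, -0.41 for Nr1d2 and 0.50 for Cry1, and from day 2 to day 7 by 1.23 for Per3. The effects of Cry1 and Nr1d2 from day 1 to day 2 were not called in 20 and 4 of the 29 fits that left out 1 sample, those of Nr1d2 and Dbp from day 0 to day 1 in 2 and 1, and the others were called in each. The markers of adipocytes also changed in their response to C70, with 6 of 10 more negative from day 0 to day 1, 1 more positive and 1 more negative from day 1 to day 2, and 9 of 10 more positive from day 2 to day 7. Their part in the clock gene values was not tested.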

How the results depend on the processing

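Every count of members called was within 1.5 times its value in the report under DESeq2, DESeq2 size factors, quantile normalization with limma, the replicate block and only the groups compared. With adjusted P alone, 4 members were called for C70 at day 2, 3 at day 7 and 2 for the C70 effect of day 7 minus day 2. By the same rule, 6064, 4919 and 3628 of all 11959 genes were called in these comparisons. With a fold change over 1.5, edgeR called 0 members for C70 at days 0 and 7 (at an unadjusted P under 0.05 and no fold limit, 2 and 3). By that unadjusted rule, 3687 and 5765 of all 11959 genes passed at days 0 and 7. Over 1.5-fold, edgeR called 3 members for C70 at day 1 and 1 at day 2. It called 5 for vehicle day 7 against day 0 and 3 for C70 day 2 against day 1. For the C70 effects of day 1 minus day 0 and day 2 minus day 1, it called 2 and 3. The share of all genes called over 1.5-fold is not given here. Without the 25% of genes of lowest mean level, 1 was called for C70 at day 2, and with library totals alone 2 at day 7. Leaving out each sample in turn, the counts for C70 were 2 to 2 at day 0, 5 to 6 at day 1, 1 to 2 at day 2 and 0 to 1 at day 7, the latter falling to 0 without C70 replicate 3. Without vehicle replicate 1 the day 7 count was 1, with Clock called in place of Per3. They were 9 to 9, 6 to 7, 9 to 9 and 7 to 8 for vehicle day 1 against 0, 2 against 1, 7 against 2 and 7 against 0, 8 to 8, 6 to 6 and 9 to 9 for the 3 C70 steps, and 3 to 5, 3 to 5 and 1 to 2 for the 3 changes of effect. The cause of these changes was not tested.

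Log2 fold changes near 0 changed sign. With library totals alone, which moved the median of all genes by over 0.1 in 3 comparisons (to -0.186, -0.136 and -0.119 for C70 day 7 against 2 and vehicle day 7 against 0 and 2), they were, for C70 against vehicle, Per1 -0.018 and Per2 -0.025 at day 0, Per1 -0.029 at day 1 and Cry2 -0.024 at day 7. For vehicle they were Cry2 0.013 at day 1 against 0, Arntl -0.033 at day 2 against 1 and Dbp -0.15 at day 7 against 0, and for the C70 effect Per1 -0.011 at day 1 minus 0 and Nr1d1 -0.016, Nr1d2 -0.040, Clock -0.048 and Dbp -0.011 at day 7 minus 2. Dbp in vehicle day 7 against 0 was also -0.0058 with DESeq2 size factors, -0.048 without the lowest genes, -0.012 with quantile normalization, -0.016 with only the groups compared and -0.0051 with DESeq2. Quantile normalization gave Dbp -0.0057 for C70 at day 2 and Cry2 0.028 for vehicle day 1 against 0, and only the groups compared gave Per2 -0.00087 for C70 at day 0. With samples left out in turn, 14 values near 0 crossed it. For C70 against vehicle these were Per1 at day 0 (-0.034 to 0.052), Per2 (-0.060 to 0.081), Nr1d1 (-0.035 to 0.14), Dbp at day 2 (-0.017 to 0.11) and Cry2 at day 7 (-0.0014 to 0.067). For the other comparisons they were Cry2 in vehicle day 1 against 0 (-0.076 to 0.0080), Clock in vehicle day 7 against 2 (-0.21 to 0.033), Dbp in vehicle day 7 against 0 (-0.11 to 0.060), Per2 in C70 day 2 against 1 (-0.057 to 0.014), the effect on Per1 at day 1 minus 0 (-0.024 to 0.062), and at day 7 minus 2 the effects on Clock (-0.13 to 0.10), Dbp (-0.040 to 0.15), Nr1d1 (-0.013 to 0.12) and Nr1d2 (-0.086 to 0.10).

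The correlation of same-numbered deviations ran from -0.20 to 0.21, and that of differently numbered ones from -0.25 to 0.33. With 3 or 4 samples in a group, this cannot settle whether replicate numbers pair the samples. The replicate block gave Per1 -0.0011 and Per2 -0.0097 for C70 at day 0, called 5 and 4 members for the C70 effects of day 1 minus 0 and day 2 minus 1, and left the other counts as they were. At the lowest member count of 62 reads, counting error alone is larger than for the other members, and it falls on Cry1 at day 1.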
